A study of Mus musculus with 7 samples.

Results

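Foxp3, Ikzf2, Ikzf4, Tbx21, Gata3, Bcl6, Tcf7, Lef1, Eomes and Tox encode transcription factors that set and mark T cell lineages and states. They were taken by gene symbol from a table of read counts, 10 genes of 55487, and all 10 passed the filter on low counts. The counts came from RNA-seq of subcutaneous groin fat (inguinal white adipose tissue) of NOD/ShiLtJ mice, an inbred strain that develops autoimmune diabetes. In 4 libraries, called imBAT, the mice had been given the fraction above 100 kDa of a buffer conditioned by brown adipocytes, under the skin, at 1.5 mg per kg for 7 days. In 3 libraries, called sham, they had been given the buffer KRBH, for which the labels state no dose. Blood glucose of the mice lay between 190 and 230 mg/dL, and the fat was taken 2 to 8 weeks after the injections. The labels give neither the age nor the sex of the mice, nor which week each library belongs to, so a difference in time between the groups cannot be told apart from the treatment. The labels do not say that each library is a separate mouse, and the p-values therefore measure the spread between these libraries.

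T cells leave the thymus with a core of factors that hold T cell identity, and helper, regulatory and cytotoxic fates are then set by factors that partly oppose each other. Foxp3 defines regulatory T cells, with Ikzf2 (Helios) and Ikzf4 (Eos) as partners. Tbx21 (T-bet) drives type 1 helper cells, Gata3 type 2 helper cells and Bcl6 follicular helper cells. Tcf7 (TCF-1) and Lef1, related factors with the same DNA-binding domain, are high in naive T cells, and Eomes and Tox act in memory, cytotoxic and persistently stimulated CD8 T cells. Visceral fat of lean mice is known for a resident regulatory T cell population. Several of these genes also work outside T cells: Gata3 is a master regulator of mammary luminal epithelium, Bcl6 is needed by germinal centre B cells and is also made by adipocytes, and Tox and Tbx21 are made by natural killer and innate lymphoid cells as well.

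RefSeq windows running from 250 bases before to 50 bases after a transcription start were at hand for 7 of the 10 genes (13 windows, build GRCm38.p6); Ikzf2, Ikzf4 and Tox were not among the 32851 windows. The 250 bases before the start are printed for 3 of them, because each holds letters bound by a factor family that is itself among the 10 genes. Capitals mark matches on either strand to 3 short words. CTTTGA is read by the family of Tcf7 and Lef1. The second, AGATAA, is read by the family of Gata3. The third, GGAAGT, is read by ETS factors.
Lef1, GRCm38.p6 chr3:131156044-131156293, plus strand: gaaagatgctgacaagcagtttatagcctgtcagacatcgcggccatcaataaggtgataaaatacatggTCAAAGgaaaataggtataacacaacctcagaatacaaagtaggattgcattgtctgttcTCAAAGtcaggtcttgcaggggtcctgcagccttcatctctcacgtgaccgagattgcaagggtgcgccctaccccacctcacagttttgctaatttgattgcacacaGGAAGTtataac
Bcl6, GRCm38.p6 chr16:23981284-23981533, minus strand: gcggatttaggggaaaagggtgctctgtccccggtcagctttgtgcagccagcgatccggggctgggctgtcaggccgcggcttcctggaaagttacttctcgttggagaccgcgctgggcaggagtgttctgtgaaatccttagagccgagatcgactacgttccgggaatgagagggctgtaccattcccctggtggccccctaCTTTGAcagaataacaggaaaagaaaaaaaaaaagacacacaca
Foxp3, GRCm38.p6 chrX:7580233-7580482, plus strand: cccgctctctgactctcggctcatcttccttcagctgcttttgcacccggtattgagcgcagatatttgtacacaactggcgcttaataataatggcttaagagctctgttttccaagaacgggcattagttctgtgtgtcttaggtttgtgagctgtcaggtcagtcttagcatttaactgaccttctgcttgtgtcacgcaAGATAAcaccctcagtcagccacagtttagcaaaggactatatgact
The Lef1 stretch, which lies before an internal start and inside the Lef1 transcript with no exon annotated in it, holds the word read by Tcf7 and Lef1 at -180 and -120 from the start, both on the other strand. CTTTGA was present in 16% of all windows. The Bcl6 stretch, also before an internal start, has CTTTGA at -44. In the Foxp3 stretch, which overlaps an exon of the noncoding gene Flicr, AGATAA stands at -47, a word found in 11.2% of all windows. AGGTGTGA and TCACAC (T-box factors), TGTTTAC (forkhead factors) and TGTGGT (RUNX factors) were searched too, on both strands, and were present in 1.28%, 14.5%, 3.65% and 16.8% of all windows, and GGAAGT in 23.8%. Among the 13 windows, CTTTGA was only in these Lef1 and Bcl6 windows. AGATAA was only in this Foxp3 window and after the start in this Lef1 window. TGTTTAC was only in a Tcf7 window, and the T-box and RUNX words were in none. The printed stretches were picked for their matches. A match is a description of letters and not of a bound site.

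Total counts were 43360208 to 63650016 in the imBAT libraries and 41025786 to 44983250 in the sham libraries. The 18 pan T cell markers (antigen receptor chains, CD3 chains, coreceptors and proximal signalling proteins, none of them among the 10 factors) took 0.0246% to 0.0964% of the counts in imBAT libraries and 0.204% to 0.268% in sham libraries. Library imBAT replicate 3 stood apart, with 0.0246% against 0.0764% to 0.0964% in the other imBAT libraries. All 18 markers fell, and all 18 had groups that did not overlap, with a median log2 fold change of -1.52. Over all genes in the test described below, 19.3% were called lower, and 52.0% had groups that did not overlap. Cd3e, a signalling chain of the T cell receptor complex, averaged 61.4 ± 25.6 CPM in imBAT libraries and 174 ± 21.9 CPM in sham libraries (SD, n = 4 and 3). Cd4 averaged 84.7 ± 30.6 CPM and Cd8a 35.7 ± 16.6 CPM in imBAT libraries, against 220.0 ± 27.9 CPM for Cd4 and 119 ± 8.54 CPM for Cd8a in sham libraries. CPM is the count per 1e+06 counts of a library total scaled by TMM, a factor that evens out differences in composition. In RNA from whole tissue, fewer cells of a type and less RNA per cell cannot be told apart.

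Of the 10 factors, 6 fell in imBAT fat (Foxp3, Ikzf2, Tcf7, Lef1, Eomes and Tox), 1 rose (Gata3) and 3 did not pass the test (Ikzf4, Tbx21 and Bcl6). The test was the edgeR quasi-likelihood test with Benjamini-Hochberg adjustment over 26393 genes and a threshold of 0.05. Over all genes tested, 19.3% were called lower and 24.3% were called higher. Of these calls 55.8% were higher, and 36.6% with upper-quartile scaling, under which all 6 lower calls and that of Gata3 held and Ikzf4 and Tbx21 were called lower too. The median log2 fold change was -1.14 over the 10 factors and -0.01 over all genes tested. The groups did not overlap for 8 of the 10 factors, 7 lower and 1 higher, against 52.0% of all genes tested.

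**Figure D1:**
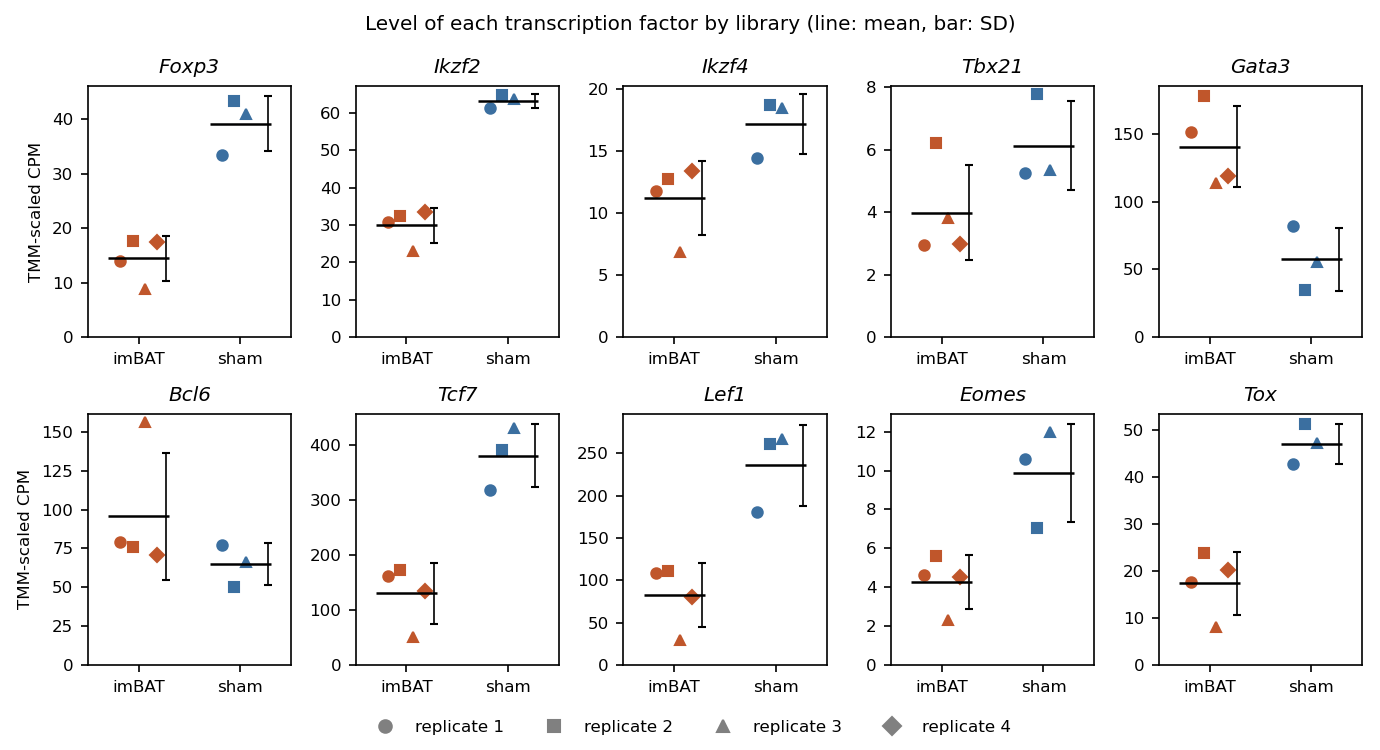
Level of each of the 10 factors in TMM-scaled CPM on the vertical axis, with the imBAT libraries on the left and the sham libraries on the right of each panel; a symbol is a library, the line is the group mean and the bar the SD. The imBAT libraries lie below all sham libraries for Foxp3, Ikzf2, Ikzf4, Tcf7, Lef1, Eomes and Tox and above them for Gata3, and in every panel but that of Tbx21, imBAT replicate 3 is the lowest or, for Bcl6, the highest imBAT library.

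The regulatory T cell factors were lower in imBAT fat. Foxp3 (ENSMUSG00000039521, GRCm38 chrX:7573644-7595245, plus strand) was at 13.99, 17.7, 8.85 and 17.5 CPM in imBAT libraries 1 to 4, against 33.5, 43.3 and 40.9 CPM in sham libraries 1 to 3. Every imBAT library lay below every sham library, and replicate 3 was the lowest. The fitted log2 fold change was -1.43 ± 0.23 (SE), which is 2.70-fold lower, with an adjusted p of 0.00241 by the edgeR test. Ikzf2 (chr1:69531214-69687245, minus strand), which encodes Helios, was at 30.7, 32.5, 23.1 and 33.5 CPM in imBAT libraries, against 61.2, 64.8 and 63.8 CPM in sham libraries. The sham libraries were tightly grouped, and the change was the most precise of the 10, at a log2 fold change of -1.08 ± 0.13 and an adjusted p of 0.00112. Ikzf4 (chr10:128630843-128645991, minus strand), which encodes Eos, a corepressor partner of Foxp3, was at 11.8, 12.8, 6.86 and 13.4 CPM in imBAT libraries, against 14.4, 18.7 and 18.4 CPM in sham libraries. These groups did not overlap either, but the log2 fold change of -0.62 ± 0.23 missed the threshold at an adjusted p of 0.0573. Without imBAT replicate 3 Ikzf4 passed, at -0.49 and an adjusted p of 0.0278, and over all alternatives its adjusted p lay between 0.0143 and 0.166.

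Among the helper lineage factors Gata3 rose and neither Tbx21 nor Bcl6 passed. Tbx21 (chr11:97098071-97115331, minus strand), the type 1 factor, was at 2.95, 6.20, 3.81 and 2.996 CPM in imBAT libraries, against 5.26, 7.77 and 5.34 CPM in sham libraries. The second imBAT library lay within the sham range, so the groups overlapped. Its log2 fold change of -0.62 ± 0.30 had an adjusted p of 0.124, and without that library it was -0.91 with an adjusted p of 0.0166, over alternatives that ran up to 0.386. Tbx21 had only 125 to 379 counts in imBAT libraries and 238 to 387 counts in sham libraries.

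Gata3 (chr2:9857078-9890034, minus strand), the type 2 factor, was at 151 CPM, 178 CPM, 114 CPM and 119 CPM in imBAT libraries, against 81.8, 34.9 and 55.3 CPM in sham libraries. All 4 imBAT libraries were above all 3 sham libraries, and the sham libraries spread more widely in proportion. The log2 fold change was 1.29 ± 0.28, which is 2.45-fold higher, with an adjusted p of 0.00776. Bcl6 (chr16:23965052-23988852, minus strand) encodes a transcriptional repressor that drives follicular helper T cells and is needed by germinal centre B cells. Bcl6 was at 79.0, 76.1, 156.3 and 70.8 CPM in imBAT libraries, against 77.3, 50.4 and 66.1 CPM in sham libraries. The third imBAT library stood far above the rest, and the other imBAT libraries lay near the top of the sham range. The log2 fold change was 0.56 ± 0.29 with an adjusted p of 0.147, and 0.17 without imBAT replicate 3.

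Tcf7 and Lef1, the highest of the 10 in sham fat per length of exon, both fell. Tcf7 (chr11:52252371-52283014, minus strand) was at 162 CPM, 172 CPM, 51.0 CPM and 134 CPM in imBAT libraries, against 318 CPM, 390.3 CPM and 431 CPM in sham libraries. The groups lay far apart, and the third imBAT library was well below the other imBAT libraries. The log2 fold change was -1.55 ± 0.36, a 2.92-fold lower level, with an adjusted p of 0.00932. Lef1 (chr3:131110471-131224356, plus strand) was at 108 CPM, 111 CPM, 29.7 CPM and 80.4 CPM in imBAT libraries, against 180.4 CPM, 261 CPM and 267 CPM in sham libraries. The third imBAT library was again the lowest and the first sham library the lowest of its group. The log2 fold change was -1.52 ± 0.39, a 2.86-fold lower level, with an adjusted p of 0.0146. With no expression filter both calls were lost, at adjusted p values of 0.0522 for Tcf7 and 0.0796 for Lef1, the highest of all alternatives for both genes. The call of Lef1 was also lost without sham replicate 3, at 0.0511.

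The factors of memory and late effector cells fell as well. Eomes (chr9:118478212-118486132, plus strand), a T-box relative of Tbx21, was at 4.65, 5.61, 2.34 and 4.53 CPM in imBAT libraries, against 10.6, 7.07 and 11.98 CPM in sham libraries. The groups did not overlap, but the second sham library came close to the imBAT range. The log2 fold change was -1.203 ± 0.30, a 2.30-fold lower level, with an adjusted p of 0.0128. Without sham replicate 3 it was -1.04 with an adjusted p of 0.0578, the highest over all alternatives. Tox (chr4:6686353-6991557, minus strand), a high mobility group factor, was at 17.6, 23.8, 8.07 and 20.2 CPM in imBAT libraries, against 42.8, 51.3 and 47.2 CPM in sham libraries. Its log2 fold change was -1.43 ± 0.30, a 2.70-fold lower level, with an adjusted p of 0.00666, and no alternative took the call away.

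Levels were compared between the genes per kilobase of exon (merged exon lengths of GENCODE M21), so that long and short transcripts stand on the same scale. Tcf7 came highest in both groups, at 49.5 CPM per kilobase in imBAT libraries and 145 CPM per kilobase in sham libraries. In imBAT fat the order after Tcf7 was Gata3 (35.3 CPM per kilobase), Bcl6 (14.3), Lef1 (9.37), Foxp3 (3.17), Ikzf2 (2.58), Tox (2.29), Ikzf4 (1.87), Tbx21 (1.60) and Eomes (1.03). Only Gata3 and Bcl6 were neighbours in that order whose libraries did not overlap. In sham fat the order after Tcf7 was Lef1 (26.8 CPM per kilobase), Gata3 (14.4), Bcl6 (9.65), Foxp3 (8.57), Tox (6.19), Ikzf2 (5.45), Ikzf4 (2.87), Tbx21 (2.46) and Eomes (2.38). There the neighbours from Lef1 to Foxp3, and from Ikzf4 to Eomes, overlapped. By the means, Lef1 thus stood above Gata3 and Bcl6 in sham libraries and below both in imBAT libraries. In imBAT replicates 1 and 2, though, Lef1 lay above Bcl6, at 12.3 against 11.8 and 12.6 against 11.4 CPM per kilobase. In imBAT replicate 3 it was at 3.38 against 23.3.

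**Figure D2:**
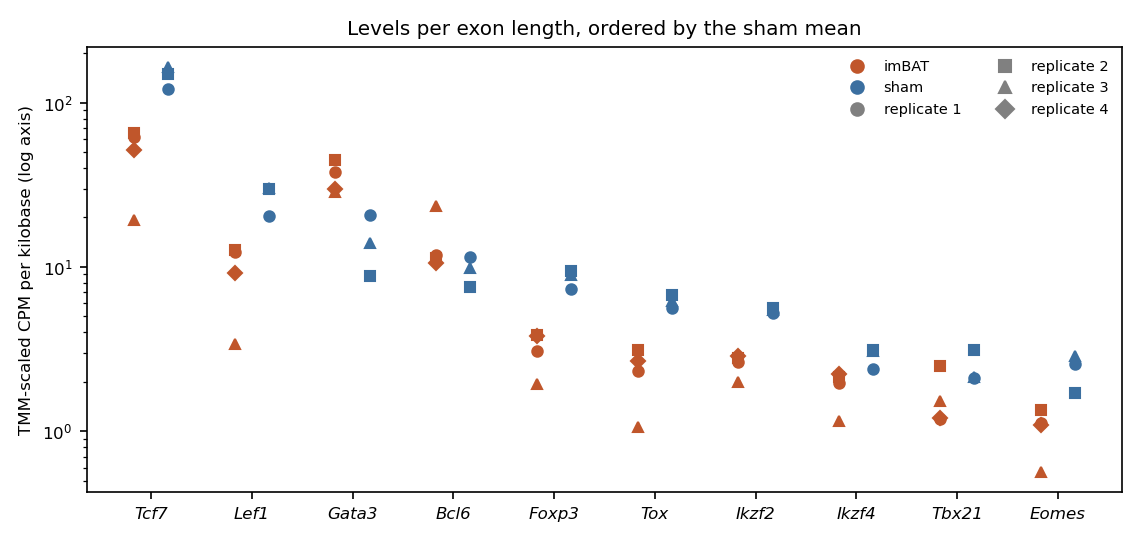
Level of each factor per kilobase of exon, in TMM-scaled CPM per kilobase on a log axis, for each library, with imBAT libraries left of sham libraries and the genes ordered by their sham mean. Tcf7 lies above the other factors in the sham libraries at 145 CPM per kilobase on average, and Eomes has the lowest mean in both groups, although its sham libraries overlap those of Tbx21.

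Since RNA of T cells made up less of imBAT fat, each factor was also expressed per 10000 counts of the 18 pan T cell markers in the same library. Tcf7 was at 1861, 1718, 1676 and 1693 per 10000 pan T counts in imBAT libraries, against 1720.4, 1717.9 and 1839.8 in sham libraries. Lef1 was at 1242, 1107, 975 and 1014 per 10000 pan T counts in imBAT libraries, against 975, 1148 and 1138 in sham libraries. On this scale the libraries of both groups were interleaved for both genes. The fitted log2 differences, imBAT over sham, were -0.02 ± 0.58 for Tcf7 (adjusted p of 0.978) and -0.003 ± 0.57 for Lef1 (adjusted p of 0.996) in the edgeR fit with the pan T count as the offset. Tox, at 201 to 265 per 10000 pan T counts in imBAT libraries and 202 to 231 in sham libraries, and Foxp3, at 160 to 291 in imBAT libraries and 175 to 190.5 in sham libraries, overlapped as well, with adjusted p values of 0.846 and 0.733. A p that misses the threshold does not show that the levels were equal, and the standard errors of this fit, which are estimated jointly with genes of all cell types, exceed the spread of these genes between libraries. Tcf7 averaged 1737 ± 84.6 per 10000 pan T counts in imBAT libraries and 1759 ± 69.7 in sham libraries (SD, n = 4 and 3).

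Eomes (53.3 to 76.8 per 10000 pan T counts in imBAT libraries, 31.1 to 57.3 in sham libraries) and Ikzf2 (324 to 760.0 in imBAT libraries, 272 to 331 in sham libraries) also overlapped. Ikzf4 was at 136, 127, 226 and 169 per 10000 pan T counts in imBAT libraries, against 77.9, 82.5 and 78.7 in sham libraries. All 4 imBAT libraries were above the sham libraries, and the difference of 1.04 ± 0.58 on the log2 scale had an adjusted p of 0.0953 with edgeR. Without imBAT replicate 3 it was 0.85 with an adjusted p of 0.00290, over alternatives that ran up to 0.223. Tbx21 was at 33.8, 61.8, 125 and 37.8 per 10000 pan T counts in imBAT libraries, against 28.4, 34.2 and 22.8 in sham libraries, with an overlap and an adjusted p of 0.0615; without imBAT replicate 1 it was 0.0415.

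Gata3 and Bcl6 were higher per pan T count. Gata3 was at 1734, 1776, 3752 and 1498 per 10000 pan T counts in imBAT libraries, against 442, 154 and 236 in sham libraries, a 7.90-fold difference with an adjusted p of 3.0e-05. Bcl6 was at 906, 759, 5139 and 893 per 10000 pan T counts in imBAT libraries, against 418, 222 and 282 in sham libraries, a 6.26-fold difference with an adjusted p of 0.000154. The value of Bcl6 rests in part on imBAT replicate 3, and its log2 difference of 2.65 was 1.47 without that library. In total 2 factors were called higher and 0 lower per pan T count, where 71.5% of all genes tested were called higher and 0.0796% lower. The number of factors called lower was also 0 with DESeq2 and at an unadjusted p under 0.05 with edgeR. DESeq2 also called Ikzf4 and Tbx21 higher per pan T count, at adjusted p values of 0.0243 and 0.0431, and gave none for Bcl6. The groups did not overlap for 3 factors (Ikzf4, Gata3 and Bcl6), against 76.8% of all genes tested, and the median log2 difference was 0.52 over the 10 factors and 1.81 over all genes tested. An exact permutation test of each factor over the 7 libraries, two-sided, gave 0.0571 for those 3, the smallest p that 4 against 3 allows, and 0.114 to 1 for the others.

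**Figure D3:**
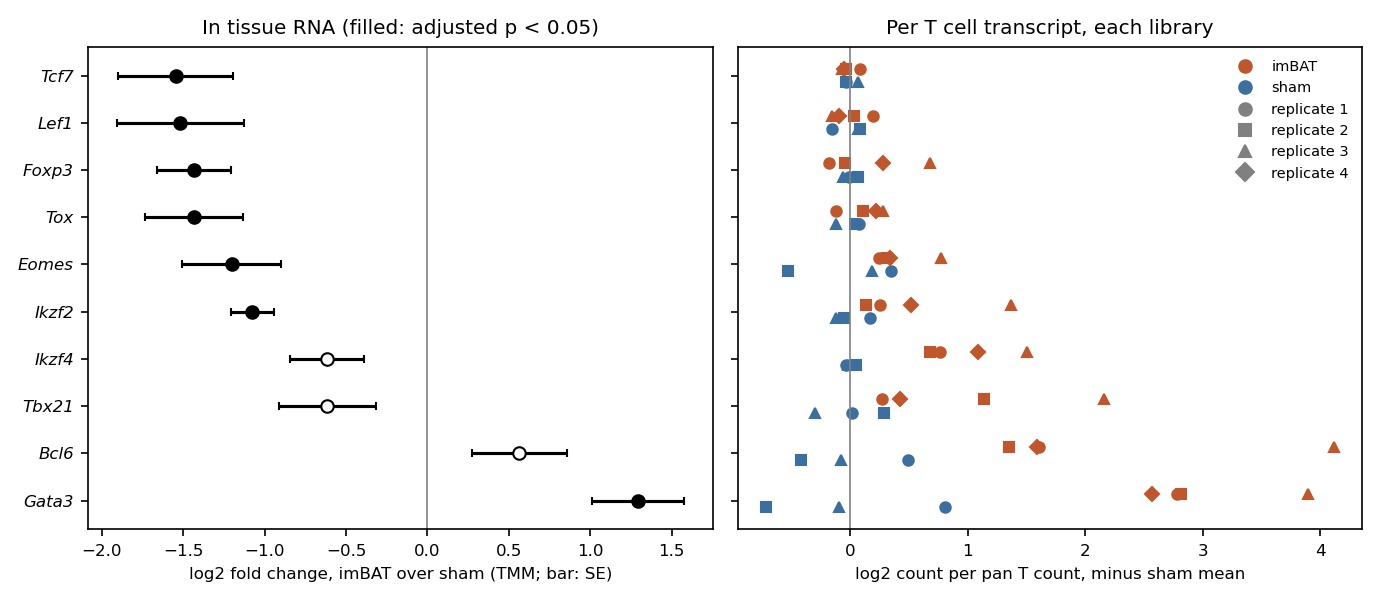
Left, log2 fold change of each factor in tissue RNA, imBAT over sham, with its SE, filled where the adjusted p was under 0.05. Right, log2 of the count per pan T count of each library relative to the sham mean, with imBAT libraries above sham libraries in each row: Tcf7, Lef1, Tox and Foxp3 scatter around 0 in both groups, and all imBAT values of Ikzf4, Bcl6 and Gata3 lie to the right of the sham values.

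The levels of other cell types' markers moved with the groups. The list counts below stand beside 19.3% of all genes tested called lower and 24.3% called higher. The 16 mammary luminal markers, all of which rose (median log2 fold change 2.02), summed to 1895 to 3475 CPM in imBAT libraries and to 301 to 945 CPM in sham libraries. Ranked by that sum, the 7 libraries stood in the same order as by Gata3, from 34.9 CPM in sham replicate 2 to 178 CPM in imBAT replicate 2. The order was not particular to luminal markers. The sum of 10 keratinocyte and basal epithelium markers gave it too, from 51.8 CPM in sham replicate 2 to 355 CPM in imBAT replicate 2. Esr1 and Pgr, the oestrogen and progesterone receptors, averaged 138 ± 28.3 CPM and 171 ± 61.8 CPM in imBAT libraries, against 37.4 ± 14.5 CPM and 29.9 ± 15.3 CPM in sham libraries. Among the imBAT libraries, replicate 2 had the highest luminal sum and the highest Pgr (253 CPM) but the lowest Esr1 (111 CPM). The 12 white adipocyte markers, all of which rose (median 3.11), summed to 12691 to 31794 CPM in imBAT libraries and to 2180 to 4662 CPM in sham libraries. Replicate 3 of imBAT, the library with the highest Bcl6, had the highest sum, and also that of 12 adipose progenitor markers (3306 CPM). Elsewhere Bcl6 was at 79.0 CPM in imBAT replicate 1 with an adipocyte sum of 23725 CPM. It was at 77.3 CPM in sham replicate 1 with an adipocyte sum of 4440 CPM. The 12 B cell markers all fell (median -1.77), and summed to 353 to 933 CPM in imBAT libraries and to 2210 to 2622 CPM in sham libraries. Of 9 tested genes of lymph node venules, stroma and follicles 6 fell (median -1.31), among them Glycam1, a mucin of high endothelial venules, at 235 ± 99.1 CPM in imBAT libraries and 883 ± 182 CPM in sham libraries. Fcer2a, another that fell, is also among the B cell markers, so the lists are not separate. No marker of these lists was at 0 in all libraries. The part of these cell types in the values of Gata3, Bcl6 and the other factors was not tested.

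**Figure D4:**
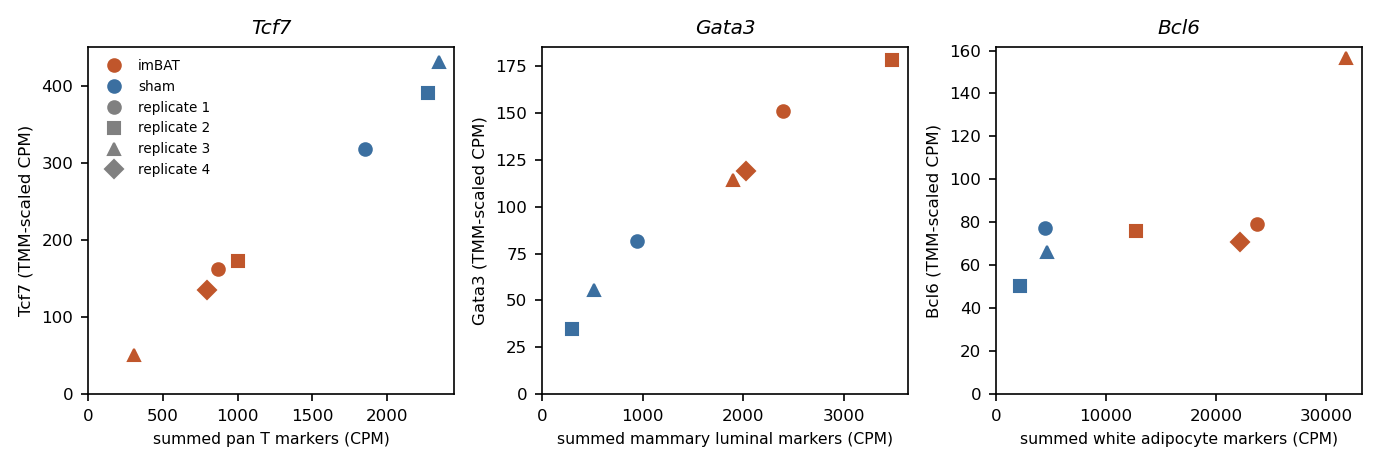
Level of Tcf7, Gata3 and Bcl6 (TMM-scaled CPM) in each library against the summed level of the pan T, mammary luminal and white adipocyte markers (CPM); a symbol is a library. Tcf7 is highest where the pan T sum is highest, Gata3 where the mammary luminal sum is highest, and the single high Bcl6 value of 156.3 CPM belongs to the library with the highest adipocyte sum. The Bcl6 values of imBAT replicate 1 and sham replicate 1 are close, at 79.0 and 77.3 CPM, with adipocyte sums of 23725 and 4440 CPM.

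Ratios between factors within a library do not depend on the library total. Of 5 ratios compared, none passed after adjustment, and 0.0571 was the smallest p the exact permutation test could give. Foxp3 to Cd4, a measure of regulatory against all CD4 T cell RNA, was 0.134, 0.176, 0.227 and 0.184 in imBAT libraries, against 0.177, 0.189 and 0.169 in sham libraries. The sham values lay inside the imBAT range, and the exact permutation p was 0.971. Ikzf2 to Foxp3 was 1.84 to 2.61 in imBAT libraries and 1.50 to 1.83 in sham libraries, without overlap (exact permutation p of 0.0571, adjusted 0.143). Tbx21 to Gata3 was 0.0195 to 0.0348 in imBAT libraries and 0.0643 to 0.222 in sham libraries, also without overlap and with the same exact p. Gata3 stood in the order of the mammary luminal sum, and of the keratinocyte and basal epithelium sum, across the 7 libraries. The part of either epithelium in the ratio was not tested. Tcf7 to Tbx21 was 13.4 to 55.0 in imBAT libraries and 50.2 to 80.8 in sham libraries, and Eomes to Tbx21 was 0.613 to 1.58 in imBAT libraries and 0.910 to 2.24 in sham libraries, with overlap in both (exact permutation p of 0.114 and 0.286).

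Other factors of T cell identity and the naive state moved mostly with Tcf7 and Lef1. Of 14 such genes, 8 fell and 2 rose, with a median log2 fold change of -1.12. Runx3, a factor of CD8 T cells, averaged 39.6 ± 14.9 CPM in imBAT libraries and 121 ± 1.60 CPM in sham libraries, and Ets1, Ikzf1 and Foxp1 fell by 1.32, 1.46 and 0.92 on the log2 scale. Satb1 (-1.46), Bcl11b (-1.42), Ikzf3 (-1.67) and Bach2 (-1.35) fell too. Id3 and Zbtb7b, which opposed the list, rose by 1.08 and 0.61. Id3 is an inhibitor of E proteins in many cell types, and Zbtb7b (ThPOK) sets the CD4 lineage. Of 19 factors of effector and helper T cells, 4 fell, among them Nfatc1, Stat4 and Id2. Another 4 rose (Stat5a, Rora, Maf and Zeb2), and the median was -0.10. Over all genes tested 19.3% were called lower and 24.3% higher, close to the shares in this list of 19. Per pan T count, 0 genes of either list were called lower, and 5 of the 14 and 13 of the 19 were called higher. On that scale 0.0796% of all genes tested were called lower and 71.5% higher. Stat4, the transducer of interleukin 12, averaged 8.75 ± 3.49 CPM in imBAT libraries and 30.6 ± 7.54 CPM in sham libraries, a log2 fold change of -1.81.

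Genes of regulatory T cells were mostly lower in tissue RNA, as Foxp3 was. Of 14, 8 fell, among them Tnfrsf4 (OX40), Itgae (CD103), Tnfrsf18 (GITR) and Ctla4, an inhibitory receptor, at 3.45 ± 1.76 CPM in imBAT libraries and 16.1 ± 5.52 CPM in sham libraries. The 3 that rose were Nrp1, Entpd1 and Lrrc32, each of which is also made by endothelial or other stromal cells. The cells that made the genes of this list, whether they rose or fell, were not tested. Beside these counts, 19.3% of all genes tested were called lower and 24.3% higher. Per pan T count, 0 of the 14 were called lower and 6 higher, where 0.0796% of all genes tested were called lower and 71.5% higher. In a list of 8 genes reported in regulatory T cells of adipose tissue, 5 rose (Cd36, Dgat1, Pcyt1a, Areg and Il1rl1) and 1 fell (Il9r). Cd36, a fatty acid transporter, and Dgat1, which makes triglycerides, are adipocyte genes too, and their rise stands beside that of the adipocyte markers. Areg was highest in imBAT replicates 1 and 2 (98.3 and 80.8 CPM), the imBAT libraries with the highest mammary luminal sums (2394 and 3475 CPM). In imBAT replicates 3 and 4 it was at 25.2 and 16.6 CPM, with luminal sums of 1895 and 2029 CPM. The library order of Areg and that of the luminal sum thus differed. The cells that made Areg were not tested. Il1rl1, the interleukin 33 receptor of both regulatory T cells and type 2 innate lymphoid cells, averaged 6.60 ± 1.197 CPM in imBAT libraries and 2.73 ± 0.915 CPM in sham libraries.

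Target genes of the helper lineages did not all follow their factors. The counts below stand beside 19.3% of all genes tested called lower and 24.3% called higher. Of 9 tested type 1 genes, 6 fell and 2 rose, with a median of -0.82. Ccl5, a chemokine of cytotoxic T cells, averaged 46.6 ± 22.3 CPM in imBAT libraries and 132 ± 12.1 CPM in sham libraries, Il12rb1 and Il18r1 fell by 1.40 and 1.25 on the log2 scale, and Ly6c2 and Gzmb rose by 1.98 and 1.17. Of 8 tested type 2 genes, 4 fell (Ccr4, Ccr8, Il4ra and Il24) and 2 rose (Epas1 and Cyp11a1), with a median of -0.58. Epas1 averaged 725 CPM in imBAT libraries, where Cd4 averaged 84.7 CPM, and the cells that made it were not tested. Ccr4, a chemokine receptor of type 2 and regulatory T cells, averaged 2.07 ± 0.981 CPM in imBAT libraries and 7.73 ± 0.304 CPM in sham libraries. Of the signature cytokines, Ifng (type 1) and Il5 and Il13 (type 2) did not pass the filter on low counts. Il4, the defining type 2 cytokine, did and averaged 0.652 ± 0.155 CPM in imBAT libraries and 0.546 ± 0.331 CPM in sham libraries (adjusted p of 0.643 with edgeR). Of 11 follicular helper genes, 9 fell (median -1.65), among them Icos, Slamf6, Btla and Il21, and Cd200 rose by 0.70. Il21 averaged 0.313 ± 0.102 CPM in imBAT libraries and 1.55 ± 0.0940 CPM in sham libraries. These counts are of tissue RNA. Per pan T count, 0 genes of the type 1, type 2 and follicular helper lists were called lower, and 3, 4 and 2 were called higher. On that scale 0.0796% of all genes tested were called lower and 71.5% higher.

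Most listed genes of naive cells and of late effector cells fell in tissue RNA. Of 12 genes of naive and central memory T cells, 9 fell and 2 rose (Igfbp4 and Tdrp), with a median of -1.31. Igfbp4 averaged 748 CPM in imBAT libraries, where Cd3e averaged 61.4 CPM, and its source among the cells was not tested. Ccr7, the chemokine receptor that brings naive T cells into lymph nodes, averaged 54.2 ± 23.2 CPM in imBAT libraries and 178 ± 39.7 CPM in sham libraries. Of 10 exhaustion and late effector genes, 9 fell (median -1.32). Cd244a, Lag3, Havcr2 and Tigit fell by 1.39, 0.81, 1.44 and 1.72 on the log2 scale. Per pan T count, 0 genes of these lists were called lower, and 3 of the naive and 0 of the late effector genes were called higher. On that scale 0.0796% of all genes tested were called lower and 71.5% higher. Of 13 natural killer and innate lymphoid genes, 4 fell (Klrk1, Klrd1, Nkg7 and Prf1) and 3 rose (Il1rl1, Arg1 and Gzma). Among all genes tested 19.3% were called lower and 24.3% higher, so the 3 that rose were about as many as for any genes. Ncr1, which marks natural killer and related innate lymphoid cells, averaged 1.69 ± 0.849 CPM in imBAT libraries and 0.955 ± 0.280 CPM in sham libraries (adjusted p of 0.167 with edgeR).

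**Figure D5:**
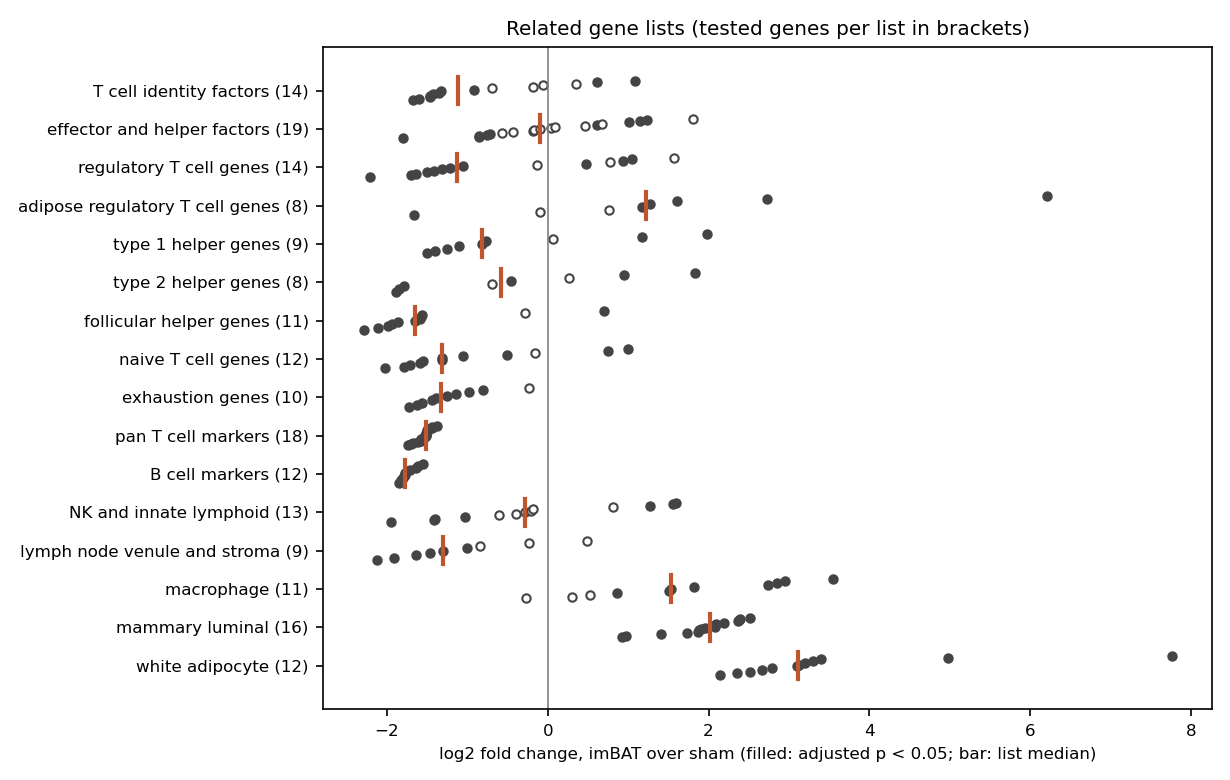
Log2 fold change, imBAT over sham, of each tested gene of 16 lists, filled where the adjusted p was under 0.05, with the list median as a bar; the number of tested genes stands in brackets. The pan T and B cell markers lie to the left of 0 as tight groups, and the adipose regulatory T cell, macrophage, mammary luminal and white adipocyte medians lie to the right. The exhaustion genes also all lie to the left, and the mammary luminal and white adipocyte genes all to the right. All lists but the pan T, B cell, exhaustion, mammary luminal and white adipocyte lists hold genes on both sides.

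The genes whose pattern over the 7 libraries was most like that of a factor were found by the root mean square difference of mean-centred log2 CPM. For Tcf7 they were Cd2, Cd6 and St8sia1, at 0.0542, 0.0655 and 0.0696 log2 units, and for Lef1 they were Tcf7, St8sia1 and Sit1, the nearest at 0.0877. Cd2 and Cd6 are among the 18 pan T cell markers. Foxp3 was nearest to Nudt17 (0.0814), Stk17b and Olfr98, Ikzf2 to Stx11 (0.0593), Socs1 and Vamp1, and Tox to Col6a4 (0.0636), H60b and Fcho1. Gata3 was nearest to Trps1 (0.0729), Ap1m2 and Wnt5b, all 3 of which rose, by 1.28, 1.28 and 1.22 on the log2 scale. Bcl6 was nearest to Dtx4 (0.0800), Pkm and Pcyt2, Eomes to Art2b (0.104), Tlr11 and Slc17a9, and Ikzf4 to Nmb (0.0760), Cd177 and Lin9. Tbx21 had the loosest match, with Sorl1 at 0.174 and Asic3 and Srsf12 after it. These distances are descriptions of 7 libraries in which 52.0% of all genes tested separate the groups.

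Some of the 10 genes share exonic bases with others, and the strand setting of the counting is not given in the sources used here. Foxp3 shares 853 exonic bases with Flicr on the same strand, and Flicr had 1091 counts over all libraries against 8707 for Foxp3. Ppp1r3f, on the opposite strand, shares 266 exonic bases with Foxp3 and had 2305 counts. Lef1 shares 1208 exonic bases with Gm43352 on the opposite strand, which had 882 counts against 52111 for Lef1. Reads of such pairs may have been divided or left out in the counting.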

How the data were processed

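RNA from inguinal white adipose tissue of 7 libraries was sequenced. The authors deposited a table of raw read counts per gene. Per the labels' protocols, STAR 2.7.9a was the aligner and Ensembl release 101 the source of the assembly, and per the submitters' processing notes featureCounts 2.0.3 was among the tools, with no role given. Of 55774 rows, 287 repeated a gene and were dropped. Groups came from the treatment label, and replicates were numbered in accession order. Total counts of 41025786 to 63650016 per library give the precision.

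The counts were tested with edgeR 4.0.16 in R 4.3.3: a robust quasi-likelihood F test on group alone, after TMM scaling and filterByExpr with a minimum count of 10. P-values were adjusted by Benjamini-Hochberg over 26393 genes. An SE is the log2 fold change divided by the square root of F. The second fit used the log of the pan T count as offset. Named from each list were up to 4 genes with the smallest p and genes against their list's direction, and for each factor the 3 nearest genes with a mean of at least 1 CPM; further list members were named after their values were seen. The 10 genes and all lists were chosen with earlier results of these data known. Where a symbol had more than 1 identifier, the one with the larger total was used. Some listed genes are not reported here but were kept in the fits and list counts. The steps were checked on simulated counts. Alternatives used RLE or upper-quartile scaling, other filters, DESeq2 1.42.0, limma 3.58.1 voom, thinned counts, other pan T lists, the title number as a block, an adjusted p under 0.10 and leaving out each library. The exact permutation test per pan T count was added after seeing the data. Coordinates and exon lengths are from GENCODE M21 (GRCm38).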

Additional observations from a re-analysis of the deposited data

Results flagged for a closer look

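In 4 cases the highest of the 4 imBAT libraries lay far from the other 3 for its group's range, and each time that library was imBAT replicate 3. Gata3 was at 3752 per 10000 pan T counts there, with a gap of 0.877 of the range. Bcl6 was at 156.3 CPM (gap 0.904) and at 5139 per 10000 pan T counts (gap 0.966). Eomes was at 76.8 per 10000 pan T counts (gap 0.838). In CPM the same library was the lowest imBAT library for Gata3 (114 CPM) and for Eomes (2.34 CPM). It also had the fewest pan T counts, 12369, by which the values per pan T count are divided. Its sum of adipocyte markers, 31794 CPM, was the highest. The part of either was not tested. Among the 25 groups of 4 values examined, chance flags about 1 in 20.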

How the results depend on the processing

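The direction of all 10 factors in tissue RNA was the same under all alternatives. The number called lower was 4 to 8 and the number called higher 1, except 2 with the title number as replicate block. That block added Bcl6 at 0.59 with an adjusted p of 0.0323, and Ikzf4 and Tbx21 fell under it. Same-numbered libraries of the 2 groups correlated at -0.01, 0.10 and 0.11 in their deviations, and differently numbered ones at -0.14 to 0.04. The 2 highest values thus belonged to same-numbered libraries. As the same-numbered values were not all above 0.1, these libraries were not treated as pairs, but a pairing was not excluded. What the number means is not given in the labels. Ikzf4 was also called lower under upper-quartile scaling (0.0184), DESeq2 (0.0330) and voom (0.0143), and Tbx21 under upper-quartile scaling (0.0499) and voom (0.0397). With upper-quartile scaling the median over all genes was -0.25, against -0.01, and the count of genes called lower was 8180, with 36.6% of calls higher against 55.8% with TMM. Leaving out 1 library gave 3024 (sham replicate 2), 3074 (sham replicate 3) and up to 5097 genes called lower, against 5084, and 4 to 7 factors called lower.

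Per pan T count, 21 genes were called lower, 7 with at least 1 CPM in 3 libraries, 39 at an adjusted p under 0.10 and 10 to 56 without 1 library (10 without sham replicate 2, 12 without sham replicate 3 and 56 without imBAT replicate 3). Genes called higher were 11545 (sham replicate 3) to 20057 without 1 library, with 11839 without sham replicate 2, against 18869. Factors called higher were 4 at an adjusted p under 0.10, where Ikzf4 and Tbx21 joined, as they did with DESeq2, and Ikzf4 with the title number as replicate block (0.0242). Lef1 lay on either side of 0: it was 0.0030 without Trac, Trbc1 and Trbc2 in the list, 0.0043 with the mean log2 of the list, and -0.0756 to 0.0445 without 1 library. Tcf7 was -0.0533 to 0.0150 without 1 library. The cause of these changes was not tested. Thinning all libraries to the smallest total changed no call of Tbx21 and Eomes, the factors with the fewest counts.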
